A study of Mus musculus and Homo sapiens with 65 samples.

Results

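Mouse 2-cell embryos that received morpholinos against the histone demethylases Kdm5a and Kdm5b were compared, by RNA-seq, with embryos that received mismatch control morpholinos. The comparison rests on 4 of the 65 samples of the series, 2 libraries in each group, taken by their labels. The title of Kdm5a+b replicate 1 reads Kdm5+b, and its source name, which reads Kdm5a+b, was followed. Of 32287 genes listed, 11438 were at 1 FPKM or more in at least 2 of these 4 libraries and were tested. FPKM is a level of RNA corrected for how long a transcript is and how many fragments were mapped in the library. The wider series also holds chromatin and DNA methylation samples of oocytes and embryos, which are not used here. Isolated zygotes were injected at 0.5 days post coitum with fluorescein-tagged oligonucleotides, both morpholinos of a pair together, and were cultured in G1 plus medium to the late 2-cell stage. Both groups were therefore injected, and they differ in the oligonucleotides they received. No genotype or strain is given in the labels of these libraries. In addition, 3 wild-type 2-cell libraries and 2 libraries of 2-cell embryos treated with alpha-amanitin, an inhibitor of RNA polymerase II, served as reference levels and shared the estimate of the spread. The wild-type libraries carry the same injection protocol in their labels, which do not settle whether those embryos were injected. The labels do not say how many embryos went into a library, nor whether replicates came from separate collections, so p-values measure only the spread between these libraries.

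KDM5A, KDM5B, KDM5C and KDM5D demethylate histone H3 at lysine 4, and trimethylation of that lysine (H3K4me3) marks active promoters in most cells. In mouse oocytes H3K4me3 also lies in broad domains away from promoters, and these are lost around the late 2-cell stage, when the embryo's own genes are switched on and maternal transcripts are cleared. Kdm5a and Kdm5b are the demethylases studied here for that step. A morpholino bound to the 5′ untranslated region blocks translation. It need not lower the mRNA, so the RNA levels of the targets do not check the knockdown, and protein and H3K4me3 were not measured in these libraries.

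The 4 oligonucleotides are printed 5′ to 3′ because the whole contrast rests on the bases by which each morpholino and its control differ. Capitals mark those positions. Each oligonucleotide is 23 bases long and each control has 5 mismatches, which also lower its G and C count from 14 to 10 for Kdm5a and from 16 to 12 for Kdm5b.
Kdm5a morpholino: tgaCggCcacCaaaGccctCtca
Kdm5a mismatch control: tgaAggAcacAaaaCccctAtca
Kdm5b morpholino: aGcaCagggCaggCtccgCaacc
Kdm5b mismatch control: aCcaAagggAaggAtccgAaacc
Counted from 1 at the 5′ end, with the morpholino's base first, the Kdm5a control carries C4A, C7A, C11A, G15C and C20A, and the Kdm5b control carries G2C, C5A, C10A, C14A and C19A.

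The sites the morpholinos pair with were found in the mouse genome (mm10), once each on their chromosome. The Kdm5a site is chr6:120364526-120364548 on the plus strand, in the 5′ untranslated region of 3 annotated transcripts. It ends 65 bases before the start codon. The Kdm5b site is chr1:134560294-134560316 on the plus strand, in the 5′ untranslated region of 2 transcripts. It ends 22 bases before the start codon. Capitals again mark the positions that face a mismatch in the control.
Kdm5a target site: tgaGagggCtttGgtgGccGtca
Kdm5b target site: ggttGcggaGcctGccctGtgCt

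Neither targeted transcript was lowered clearly. Kdm5a (ENSMUSG00000030180.10, chr6:120364099-120444574) stood at 12.8 and 9.44 FPKM in the control libraries, against 19.5 and 15.3 FPKM in the other group. The groups did not overlap, and the Kdm5a+b libraries were the higher ones. The log2 difference on the log2(FPKM + 1) scale, Kdm5a+b minus control, was 0.61 (SE 0.42, limma adjusted p = 1.00). Kdm5b (ENSMUSG00000042207.12, chr1:134560171-134635285) stood at 55.3 and 39.6 FPKM in the controls, against 38.1 and 27.6 FPKM in embryos given the targeting oligonucleotides. Here both Kdm5a+b libraries lay under both controls, for a log2 difference of -0.52 (SE 0.53, limma adjusted p = 1.00). For either gene the exact two-sided permutation test gave p = 0.333, the smallest value that 2 libraries against 2 can give. The wild-type range, 11.2 to 17.1 FPKM for Kdm5a and 34.8 to 65.7 FPKM for Kdm5b, took in 1 of the 2 control libraries and 1 of the 2 Kdm5a+b libraries for Kdm5a, and both controls and 1 Kdm5a+b library for Kdm5b. Kdm5c, the X-linked relative that the morpholinos do not target, was at 6.80 and 19.8 FPKM in the controls and at 5.10 and 8.44 FPKM in the Kdm5a+b libraries, which overlap.

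**Figure D1:**
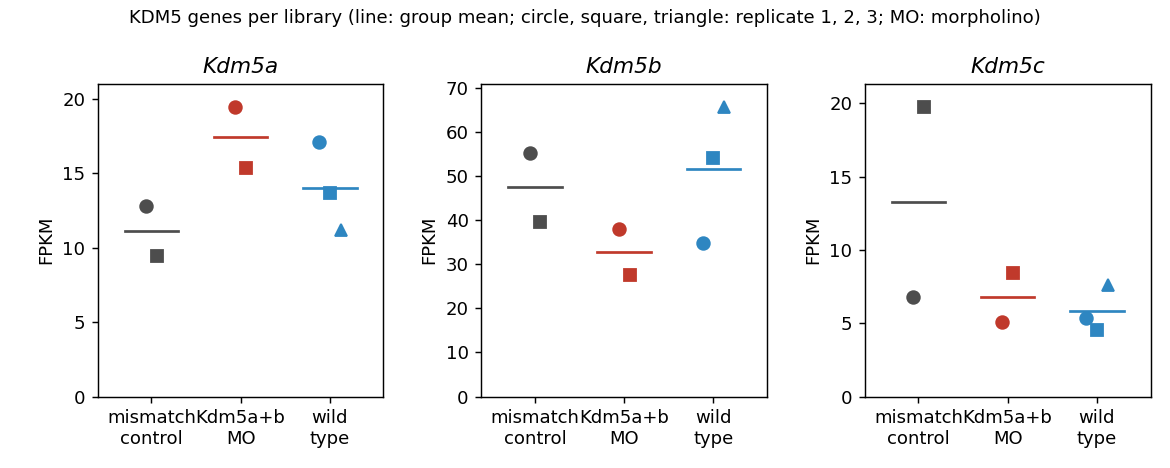
FPKM of Kdm5a, Kdm5b and Kdm5c in each library (circle, square and triangle are replicates 1, 2 and 3; the line is the group mean), for mismatch control, Kdm5a+b morpholino and wild-type embryos. Kdm5a lies between 15.3 and 19.5 in the Kdm5a+b libraries against 9.44 and 12.8 in the controls, and Kdm5b lies between 27.6 and 38.1 against 39.6 and 55.3.

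Across the transcriptome no gene passed the test. With limma and Benjamini-Hochberg adjustment over all 11438 genes, 0 genes (0%) had an adjusted p under 0.05, and the smallest adjusted p was 0.232. At an unadjusted p under 0.05, 243 genes (2.12% of those tested) were higher and 177 (1.55%) were lower with the Kdm5a+b morpholinos, 420 (3.67%) in all. That is under the 572 genes that a threshold of 0.05 returns from this many tests when nothing differs. By size alone, 440 genes (3.85%) were at least 2-fold higher and 386 (3.37%) at least 2-fold lower with groups that did not overlap. Groups that did not overlap, at any size of difference, were found for 1923 genes (16.8%) on the higher side and 1928 (16.9%) on the lower. Where nothing differs, the 6 ways to split 4 libraries 2 against 2 give about such a share on each side. The bounds the authors deposited around each FPKM were also apart, every Kdm5a+b bound beyond every control bound, for 583 genes (5.8%) on the higher side and 562 (5.59%) on the lower, of 10046 genes for which they could be used. Every gene named from here on is therefore described by its values, and none is called changed.

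The spread between libraries of one group was as wide as that between groups. Control replicate 1 correlated better with Kdm5a+b replicate 1 (r = 0.924 across genes) than with control replicate 2 (r = 0.878), and the pair of Kdm5a+b libraries correlated at r = 0.894. Genes are not independent replicates, and these r values are descriptions. The controls lay at least 2-fold apart for 21.1% of tested genes, the Kdm5a+b libraries for 18.2%, and control replicate 1 and Kdm5a+b replicate 1 for 11.1%. Control replicate 2 was the library least like the other 3. Without it 119 genes were higher and 117 lower at an unadjusted p under 0.05, against 424 and 282 without control replicate 1. The 4 injected libraries listed 10611 to 11228 genes at 1 FPKM or more, and the half-width of the deposited bounds was, at the median, 15.8% to 19.9% of the FPKM. They looked like 2-cell embryos: 10 markers of that stage stood between 3.66 and 152 FPKM. Among markers of cells that can adhere to embryos, 1 of 18 cumulus and granulosa genes, 4 of 12 sperm genes, 4 of 15 blood genes and 6 of 13 oviduct epithelium genes reached 1 FPKM in any of the 4 libraries. Their levels summed, in control and then Kdm5a+b libraries, to 1.503, 3.93, 1.78 and 0.986 FPKM for the cumulus list and to 6.65, 2.89, 2.32 and 2.20 FPKM for the sperm list. For blood genes the sums were 4.01, 3.57, 4.33 and 13.9 FPKM. The oviduct list, which includes genes embryos express, summed to 95.3, 79.7, 95.1 and 78.4 FPKM, and 1 of its genes, Krt18, was under the unadjusted threshold at 2.06 and 3.19 FPKM against 0.259 and 0.0385 FPKM. At 0 in all 4 libraries were 3 of the cumulus, 4 of the sperm, 6 of the blood and 1 of the oviduct genes, among them Foxl2 and Inha of granulosa cells, Prm1 of sperm, and Hbb-bs and S100a8 of blood. Other blood genes were above 1 FPKM in all 4 libraries. In control and then Kdm5a+b libraries, Hba-a1 was at 1.06, 1.57, 2.53 and 2.14 FPKM. Hba-a2 was at 1.33, 2.00, 1.15 and 5.72 FPKM. The part of such cells in the gene results was not tested.

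**Figure D2:**
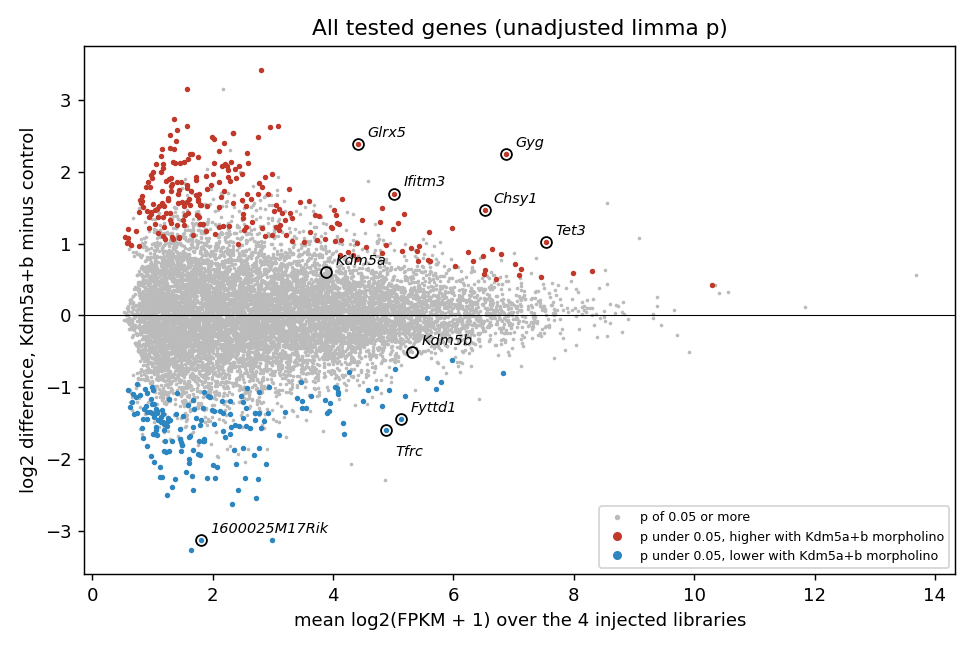
Each point is 1 of the 11438 tested genes, by its mean log2(FPKM + 1) over the 4 injected libraries (horizontal) and its log2 difference, Kdm5a+b minus control (vertical); red and blue points have an unadjusted limma p under 0.05. The 243 higher and 177 lower genes lie mostly at low levels, while Gyg at 2.24 and Chsy1 at 1.46 stand out among well expressed genes.

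The rest of the H3K4 methylation machinery held no gene that passed the adjusted threshold. The H3K4 methyltransferase complexes write the mark that KDM5 enzymes erase. Of their 23 tested genes, 1 was higher and 0 were lower at an unadjusted p under 0.05. Over all tested genes those shares were 2.12% and 1.55%. In this list 15 lay above 0 and 8 below (median log2 difference 0.10, against 0.0063 for all tested genes). That median was -0.03 without control replicate 2 and -0.04 without Kdm5a+b replicate 2. The 1 was Smyd3, a SET and MYND domain methyltransferase, at 3.53 and 2.22 FPKM in the controls and at 6.93 and 8.55 FPKM in the Kdm5a+b libraries. The 2 groups were well apart, while wild-type libraries ran from 4.55 to 10.1 FPKM and so covered the Kdm5a+b levels. The paralogous catalytic subunits Setd1a and Setd1b lay on opposite sides. Setd1a was at 63.5 and 81.7 FPKM in the controls and at 42.3 and 44.8 FPKM in the Kdm5a+b libraries, a log2 difference of -0.71 (SE 0.34, limma adjusted p = 1.00). Setd1b was at 12.1 and 9.36 FPKM in the controls and at 18.1 and 21 FPKM in the Kdm5a+b libraries, a log2 difference of 0.82 (SE 0.40, limma adjusted p = 1.00). For Setd1b all wild-type libraries (7.05 to 12.6 FPKM) lay below both Kdm5a+b libraries, and for Setd1a all lay above both (52.4 to 105 FPKM). Kmt2b, the methyltransferase that oocytes use for most of their H3K4me3, was at 37.8 and 89.3 FPKM in the controls and at 39.3 and 19.6 FPKM in the Kdm5a+b libraries, which overlap. Rbbp5, a core subunit of these complexes, was at 1.71 and 0.765 FPKM against 6.59 and 2.64 FPKM.

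For erasers and readers of the mark, counts under the unadjusted threshold stand beside 2.12% higher and 1.55% lower of all tested genes. None of 27 corepressor subunits that associate with KDM5 proteins passed the unadjusted threshold, with 16 above 0 and 11 below (median 0.08). Among them Chd4, the NuRD remodelling ATPase, was at 49.4 and 26.9 FPKM in the controls and at 52.5 and 60.3 FPKM in the Kdm5a+b libraries. None of the 4 tested members of the other H3K4 demethylases passed, and Kdm1b, the oocyte H3K4 demethylase, was at 21.4 and 22.2 FPKM in the controls and at 16.98 and 30.4 FPKM in the Kdm5a+b libraries. Of 15 other lysine demethylases, Kdm2a was the 1 under the threshold, at 70.2 and 77.9 FPKM against 26.8 and 47.7 FPKM (log2 difference -1.03, SE 0.44, limma adjusted p = 1.00). Wild-type Kdm2a ran from 36.9 to 85.8 FPKM, over both controls and 1 of the 2 Kdm5a+b libraries. Of 18 tested genes that encode H3K4 methylation readers, 2 were lower and 0 higher, where 1.55% of all tested genes were lower. They were Ing4, at 4.42 and 2.95 FPKM against 1.64 and 0.166 FPKM, and Ccdc101, a SAGA complex subunit, at 13.7 and 6.83 FPKM against 0.471 and 3.41 FPKM. In wild-type libraries Ing4 was at 1.00 FPKM or less, on the side of the Kdm5a+b libraries.

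Genes switched on at the 2-cell stage were at similar levels in both groups. Of 52 tested genes in this list, 43 were lower after alpha-amanitin than in wild-type embryos. With the Kdm5a+b morpholinos 0 were higher and 0 lower at an unadjusted p under 0.05, beside 2.12% and 1.55% of all tested genes. Of the 52, 32 lay above 0 and 20 below, and the median log2 difference was 0.08, with a range from -0.48 to 1.00. The groups did not overlap for 9 genes on the higher side and 4 on the lower (17.3% and 7.69%, against 16.8% and 16.9% of all tested genes). Zscan4d, of the cluster that marks the 2-cell state, was at 9.998 and 10.4 FPKM in the controls and at 7.54 and 14.4 FPKM in the Kdm5a+b libraries. Zfp352, a zinc finger gene of the same stage, was at 128 and 152 FPKM against 122 and 137 FPKM. In both, the groups overlapped. Obox3, an early embryo homeobox gene, was at 50.6 and 29.9 FPKM against 62.5 and 57.2 FPKM (log2 difference 0.61, SE 0.38, limma adjusted p = 1.00), and Tcstv1 at 49.6 and 36.4 FPKM against 56.2 and 69.3 FPKM. Those 2 lay apart. All wild-type libraries for Obox3 (33.6 to 57.1 FPKM) were below the Kdm5a+b libraries, and those for Tcstv1 (44.3 to 61.7 FPKM) fell in both ranges. Among pluripotency and early lineage regulators (25 tested genes, median -0.03) and early embryo homeobox genes (9 tested, median 0.03), 0 were under the threshold.

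Alpha-amanitin and wild-type libraries share no sample with this contrast. They sort the tested genes into those that embryonic transcription supplies and those that persist or gain in share without it. The estimate of the spread is common to both comparisons, so their calls by p are not independent. Genes lower with alpha-amanitin by at least 2-fold at an adjusted limma p under 0.05 numbered 3340 (29.2% of tested genes), and genes higher by the same rule numbered 451 (3.94%). The genes lower with alpha-amanitin were centred near 0: their median log2 difference with the Kdm5a+b morpholinos was -0.03, 47.3% lay above 0, and 43 were higher and 51 lower at an unadjusted p under 0.05. The 451 genes higher with alpha-amanitin lay above the rest. Their median was 0.17, 302 lay above 0 and 149 below, and 27 (5.99%) were higher while 4 (0.887%) were lower. For all tested genes the median was 0.0063 and the corresponding shares were 2.12% and 1.55%.

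The difference was seen in every pairing of libraries. The median difference of these 451 genes was 0.18 and 0.26 between Kdm5a+b replicate 1 and control replicates 1 and 2, and 0.15 and 0.21 between Kdm5a+b replicate 2 and the same controls. For all tested genes the same 4 medians were -0.05, 0.07, -0.04 and 0.06. Relative to all genes, the class sat 0.11 and 0.08 below the 4-library mean in the controls and 0.08 and 0.08 above it in the Kdm5a+b libraries on the log2 scale. The 2 controls differed by 0.05 at the class median, less than any of the 4 pairings between groups. Part of its size moved with scaling: the median was 0.10 after quantile normalization and 0.08 after rescaling to equal totals (TPM), while the medians of all tested genes were -0.01 and -0.07. With 2 libraries a group, no exact permutation p can fall under 0.333. Seen from the other side, 11.1% of the 243 higher genes and 2.26% of the 177 lower genes were in this class, against 3.94% of all tested genes. Genes lower with alpha-amanitin made up 17.7% of the higher and 28.8% of the lower genes, against 29.2% of all.

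**Figure D3:**
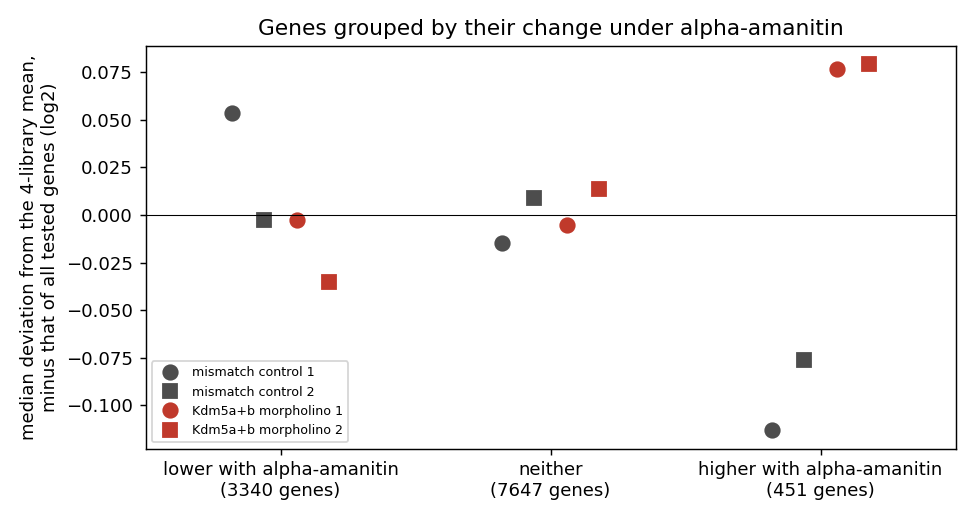
Median deviation of 3 gene classes from the mean of the 4 injected libraries, minus that of all tested genes (vertical, log2), by library; the classes come from alpha-amanitin against wild type. The 451 genes higher with alpha-amanitin sit below 0 in both controls and at 0.08 in both Kdm5a+b libraries.

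More oocyte and maternal effect genes lay above 0 than below. Of 83 tested, 5 were higher and 0 lower at an unadjusted p under 0.05, beside 2.12% and 1.55% of all tested genes. Of the 83, 56 lay above 0 and 27 below, and the median was 0.16. The groups did not overlap for 25 genes on the higher side (30.1%) and 5 on the lower (6.02%), beside 16.8% and 16.9% of all tested genes. Of the list, 14 genes also belong to the class higher with alpha-amanitin, so both descriptions share genes. Without control replicate 2 the list's median was 0.06, and without control replicate 1 it was 0.32. The 5 were Tet3, Tcl1b4, Tcl1b3, Oosp1 and Omt2b. In bulk embryos, more transcript per embryo and a larger share of a smaller total cannot be told apart.

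Tet3 (ENSMUSG00000034832.10, chr6:83362373-83459084), the maternal enzyme that oxidizes 5-methylcytosine in the zygote, had the smallest p of that list. It stood at 109 and 154 FPKM in the controls and at 251 and 279 FPKM in the Kdm5a+b libraries, a 2.01-fold ratio of means (132 ± 32.0 against 265 ± 20.3, SD, n = 2 each). The log2 difference was 1.02 (SE 0.25, limma adjusted p = 0.738). All 3 wild-type libraries, at 96.1 to 132 FPKM, lay with the controls, and alpha-amanitin libraries were at 177 and 171 FPKM. Tcl1b3 was at 122 and 100 FPKM in the controls and at 203 and 146 FPKM in the Kdm5a+b libraries. Its wild-type range was 90.3 to 122 FPKM, again on the control side. Oosp1, an oocyte-secreted protein, was at 259 and 163 FPKM against 296 and 326 FPKM. Other maternal genes lay on the lower side: Nlrp5, of the subcortical maternal complex, was at 22.98 and 22.1 FPKM against 20.3 and 17.9 FPKM, and Bmp15, an oocyte growth factor, at 178 and 199 FPKM against 162 and 167 FPKM. In those 2, both Kdm5a+b libraries were below both controls. Eif4e1b, the oocyte form of the cap-binding protein, belongs to the list of translation initiation factors and was at 90.6 and 73.7 FPKM against 162 and 137 FPKM (log2 difference 0.86, SE 0.23, limma adjusted p = 0.842). Wild-type Eif4e1b, at 70.9 to 85.6 FPKM, lay with the controls.

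Most tested replication-dependent histone genes lay above 0, with a wide spread. Only 33 of 66 listed genes passed the filter on low values, which favours those that are high in 1 group, so the median of 0.47 describes those 33 and not the family. With no filter it was 0.19. Of the 33, 2 were higher and 0 lower at an unadjusted p under 0.05, beside 2.12% and 1.55% of all tested genes. In all, 25 lay above 0 and 8 below. Summed over all 66 listed genes, the list gave 455 and 452 FPKM in the controls, against 749 and 579 FPKM after the Kdm5a+b morpholinos. Wild-type libraries ran from 338 to 659 FPKM and overlapped both groups. Hist1h2bl, an H2B gene, was at 10.4 and 7.29 FPKM against 21.6 and 30.8 FPKM, and Hist1h3g, an H3 gene, at 1.77 and 5.51 FPKM against 8.54 and 18.5 FPKM. Near-identical copies make the split of reads among histone genes uncertain.

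Proteasome subunits leaned the other way. Of 31 tested, 0 were higher and 1 was lower at an unadjusted p under 0.05, beside 2.12% and 1.55% of all tested genes. Of the 31, 11 lay above 0 and 20 below, and the median was -0.26. The groups did not overlap for 3 on the higher side (9.68%) and 10 on the lower (32.3%), beside 16.8% and 16.9% of all tested genes. The 1 was Psmb2, a core particle subunit, at 18.3 and 28.2 FPKM in the controls, 12.9 and 8.93 FPKM in the Kdm5a+b libraries and 28.5 to 45.7 FPKM in wild type. Both Kdm5a+b libraries lay below every control and wild-type library. The 86 tested ribosome biogenesis genes, 71 of them lower with alpha-amanitin, gave 36 above 0 and 50 below (median -0.07), and 0 passed in either direction. Of 16 DNA methylation genes 11 lay above 0, and Tet3 was the 1 under the threshold. In the stress and damage lists, Bcl2l1, an anti-apoptotic gene, was the 1 of 34 tested p53 and apoptosis genes under the threshold. Of 29 unfolded protein response genes, 0 passed.

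**Figure D4:**
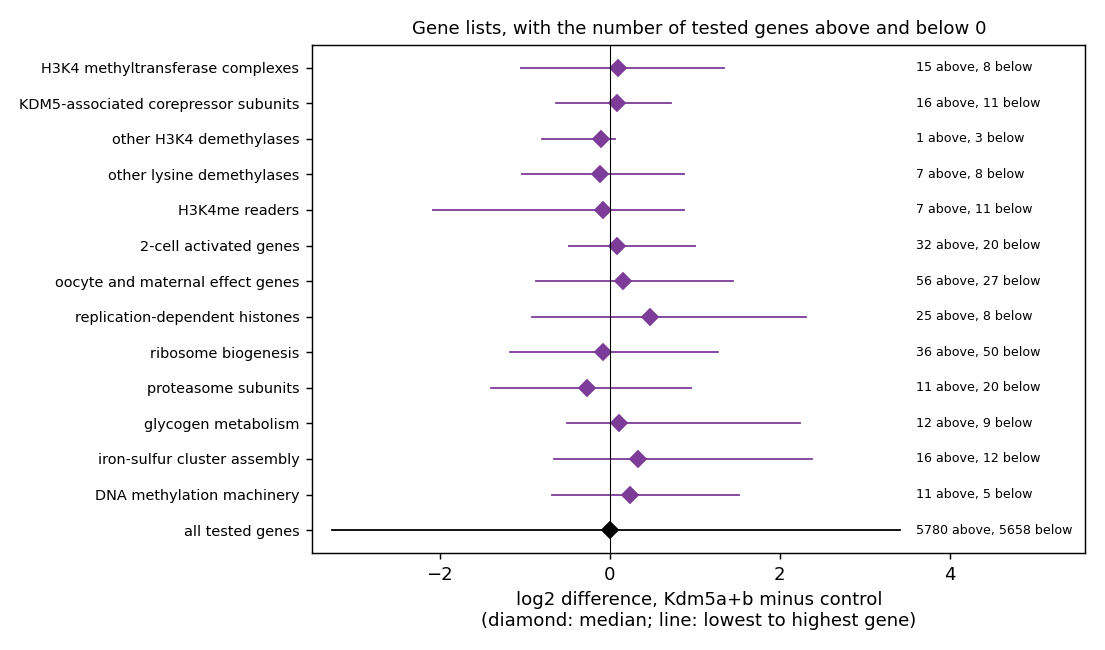
Median log2 difference, Kdm5a+b minus control, of 13 gene lists and of all tested genes (diamonds), with the lowest and highest gene as line ends and the number of genes above and below 0 at the right. Replication-dependent histones (0.47) and iron-sulfur cluster assembly (0.34) have the highest medians shown, and proteasome subunits (-0.26) the lowest.

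The best separated gene was Gyg (ENSMUSG00000019528.13, chr3:20122084-20155317), which encodes glycogenin, the protein primer of glycogen synthesis. It stood at 54.6 and 51.3 FPKM in the controls and at 248 and 261 FPKM in the Kdm5a+b libraries. The ratio of means was 4.81 (52.98 ± 2.31 against 255 ± 8.79, SD, n = 2 each), and the log2 difference was 2.24 (SE 0.32, limma adjusted p = 0.232). Wild-type libraries, at 28.5 to 55.6 FPKM, lay with the controls, and the alpha-amanitin libraries stood between at 117 and 157 FPKM. Each of the 2 Kdm5a+b libraries was over every one of the other 7 RNA libraries analysed. Of 21 tested glycogen metabolism genes, Gyg was the 1 under the unadjusted threshold, beside 2.12% higher and 1.55% lower of all tested genes. In that list 12 lay above 0 and 9 below. Stbd1, a glycogen-binding protein, came next at 9.10 and 13.6 FPKM against 20.2 and 23.1 FPKM, with wild type at 8.86 to 20.8 FPKM.

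Glrx5 (ENSMUSG00000021102.3, chr12:105032689-105040910), which carries iron-sulfur clusters between mitochondrial proteins, had the next smallest p. It was at 10.5 and 6.67 FPKM in the controls and at 40.7 and 56.6 FPKM in the Kdm5a+b libraries, a 5.66-fold ratio of means and a log2 difference of 2.38 (SE 0.35, limma adjusted p = 0.232). With no filter on low values its limma adjusted p was 0.0439. Wild-type libraries, at 18.9 to 21.8 FPKM, lay between the groups, so the controls were below and the Kdm5a+b libraries above wild type. Of 28 tested iron-sulfur assembly genes, Nfs1, the cysteine desulfurase, also passed the unadjusted threshold, at 3.58 and 0.370 FPKM against 6.57 and 7.10 FPKM. The list had 16 genes above 0 and 12 below, and 0 that were lower at that threshold. Over all tested genes, 2.12% were higher and 1.55% lower at it. Gyg and Glrx5 were known from earlier results of these data when the gene lists were chosen.

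Chsy1 and Ifitm3 shared the pattern of Gyg, with wild type at the level of the controls. Chsy1 (chr7:66109515-66173789), a chondroitin synthase, was at 54.8 and 53.6 FPKM in the controls and at 143 and 160 FPKM in the Kdm5a+b libraries (log2 difference 1.46, SE 0.28, limma adjusted p = 0.534). Its wild-type libraries were at 48.9 to 52.2 FPKM. Ifitm3 (chr7:141009586-141010770), an interferon-induced membrane protein, was at 18.9 and 15.4 FPKM against 47.9 and 68.9 FPKM (log2 difference 1.70, SE 0.33, limma adjusted p = 0.534). Wild type was at 11.6 to 17.5 FPKM and alpha-amanitin at 44.5 and 50.5 FPKM. Of 18 tested interferon-stimulated genes, Ifitm3 was the 1 under the threshold, beside 2.12% higher and 1.55% lower of all tested genes. In that list 7 lay above 0 and 11 below. The groups did not overlap for 3 on either side (16.7% each, beside 16.8% and 16.9% of all tested genes). On the lower side, Mavs was at 12.7 and 28.6 FPKM against 11.9 and 5.71 FPKM. On the higher side, Bst2, an antiviral membrane protein, was at 6.39 and 1.61 FPKM against 11.1 and 11.5 FPKM. Tlr3, a receptor for double-stranded RNA, was at 1.01 and 0.727 FPKM against 2.00 and 3.24 FPKM.

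The other genes among the 12 with the largest higher differences were less even. Nfkbib, an inhibitor of NF-kappaB, was at 3.23 and 1.76 FPKM in the controls and at 7.08 and 54.9 FPKM in the Kdm5a+b libraries, and its log2 difference of 2.64 was 1.24 without Kdm5a+b replicate 2. Rab3a, a GTPase of secretory vesicles, was at 5.27 and 3.24 FPKM against 7.13 and 24.7 FPKM, with the same library high. Dnajc11, a mitochondrial DnaJ protein, was at 6.79 and 2.51 FPKM against 20.3 and 13.7 FPKM. For Capns1, the calpain small subunit, the values were 7.78 and 3.55 FPKM against 20.1 and 15.8 FPKM, and wild type ran from 8.72 to 32.4 FPKM. Deb1 was at 9.59 and 3.64 FPKM against 16.01 and 25.5 FPKM, and its wild-type libraries (19.7 to 30.8 FPKM) were on the side of the Kdm5a+b libraries. Cd164l2 was at 12.2 and 20.3 FPKM against 40.8 and 51.8 FPKM, and Polr2j, an RNA polymerase II subunit, at 29.6 and 15.1 FPKM against 70.3 and 47.7 FPKM. For those 2, wild-type libraries ran from the level of the controls to above the Kdm5a+b libraries. Over these 12 genes, Hist1h2bl among them, the wild-type median was nearer the controls for 6, and for 7 the deposited bounds of the groups were apart. Over all 60 higher genes at a mean of 10 FPKM or more that met the naming rule, the wild-type median was nearer the controls for 42. Of those 60, 15 (25%) were in the class higher with alpha-amanitin and 14 (23.3%) in the class lower with it, beside 3.94% and 29.2% of all tested genes. Both classes had a higher median level than all tested genes, and the naming rule also selects for level. The shares of all tested genes are therefore not matched for level to these 60.

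Among lower genes, Tfrc (chr16:32608920-32632794), the transferrin receptor through which cells take up iron, was at 43.0 and 59.1 FPKM in the controls and at 23.1 and 10.9 FPKM in the Kdm5a+b libraries. The ratio of means was 3.00, and the log2 difference was -1.60 (SE 0.57, limma adjusted p = 1.00). Wild-type libraries, at 55.3 to 60.6 FPKM, lay with the controls, and alpha-amanitin libraries were at 4.03 and 0.289 FPKM. Fyttd1, an mRNA export adaptor, was at 40.7 and 79.0 FPKM against 22.5 and 18.3 FPKM, and Nup160, a nuclear pore scaffold protein, at 16.3 and 33.3 FPKM against 8.49 and 8.92 FPKM. In both, all wild-type libraries lay above both Kdm5a+b libraries. Drg1, a GTP-binding protein, was at 16.9 and 26.1 FPKM against 8.22 and 9.17 FPKM, with wild type at 12.8 to 30.4 FPKM. Mapk7, the kinase ERK5, was at 12.2 and 22.5 FPKM against 5.57 and 6.89 FPKM, and Mrpl51, a mitochondrial ribosomal protein, at 11.8 and 21.3 FPKM against 8.27 and 4.93 FPKM. Their wild-type libraries also lay above both Kdm5a+b libraries. Of the 12 largest lower differences, 6 were genes lower with alpha-amanitin, a class that holds 29.2% of all tested genes. Genes of that class had a higher median level than all tested genes, and the naming rule also selects for level. The share of all tested genes is therefore not matched for level, and an excess over it was not tested.

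For 2 of those 12, Ttc23 and Sh3bp5l, control replicate 2 was far above the other libraries. Ttc23 was at 7.25 and 29.5 FPKM in the controls and at 3.41 and 0.673 FPKM in the Kdm5a+b libraries, and Sh3bp5l at 3.31 and 35.0 FPKM against 1.67 and 1.00 FPKM. Wild-type libraries did not exceed 4.52 and 6.29 FPKM for these genes, far below control replicate 2. Their log2 differences were -2.54 and -2.43, and -1.60 and -0.90 without that library. Cmklr1, the chemerin receptor, was at 32.6 and 26.5 FPKM against 17.01 and 5.41 FPKM. The guanine nucleotide exchange factor Sos2 was at 20.2 and 26.0 FPKM against 11.2 and 6.15 FPKM, and Vkorc1, of the vitamin K cycle, at 30.2 and 60.8 FPKM against 20.8 and 14.2 FPKM. For these 3 genes wild-type libraries lay on both sides, some with the controls and some with the Kdm5a+b libraries.

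**Figure D5:**
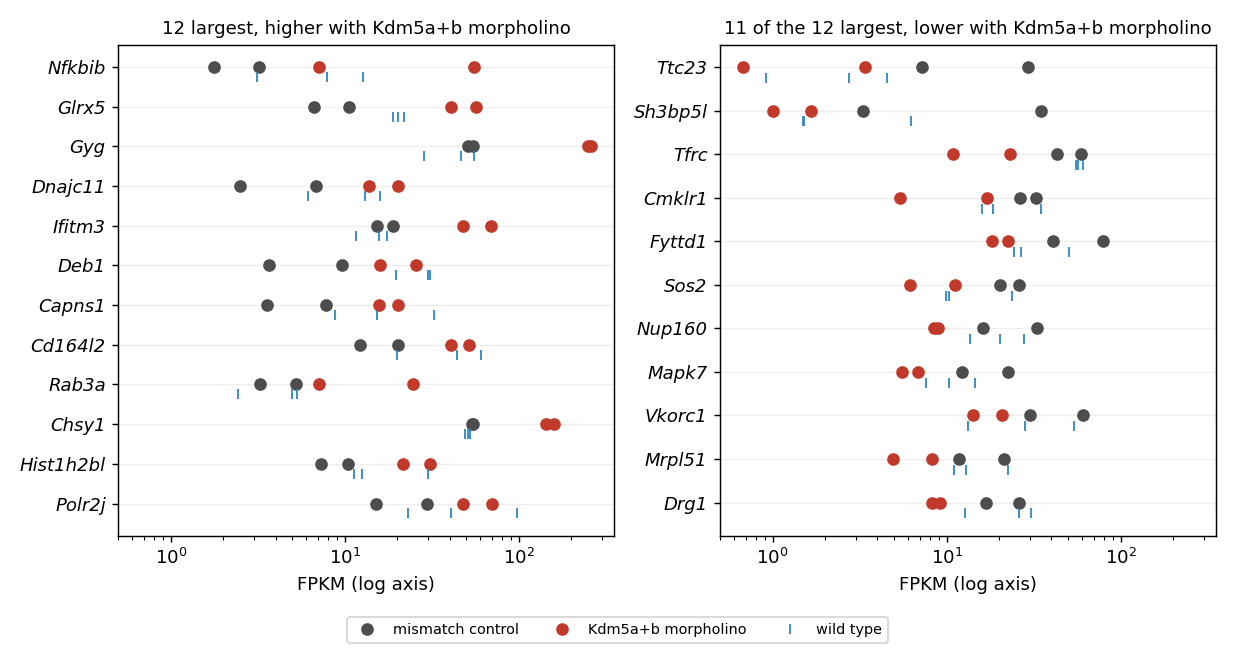
FPKM (log axis) of the 12 genes with the largest higher log2 difference under the naming rule and of 11 of the 12 with the largest lower one, per library, for mismatch control (grey), Kdm5a+b morpholino (red) and wild type (blue ticks). Control and Kdm5a+b points do not overlap by construction; wild-type ticks lie with the controls for Gyg, Chsy1, Ifitm3 and Tfrc.

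The smallest p among lower genes belonged to 1600025M17Rik (chrX:56317608-56320664), at 8.67 and 10.3 FPKM in the controls and at 0.185 and 0.193 FPKM in the Kdm5a+b libraries (log2 difference -3.13, SE 0.52, limma adjusted p = 0.384). Wild-type libraries were at 4.87 to 11.8 FPKM, with the controls, and both alpha-amanitin libraries at 0. Hdhd2 was at 4.74 and 8.72 FPKM against 0.109 and 0.722 FPKM, but wild type was at 0.509 FPKM or less, so here the controls were the libraries apart. Gm7846 was listed at 2.49 and 2.58 FPKM in the controls and at 0 in the other 7 RNA libraries analysed. On the higher side Gm12147 was at 5.86 and 2.63 FPKM in the Kdm5a+b libraries and under 0.1 FPKM in the other 7. In all, 5 genes were listed at 0 in both controls and at 1 FPKM or more in both Kdm5a+b libraries, and 8 the reverse. Of these 13, 8 were also at 0 in all wild-type libraries. Fzr1, an activator of the anaphase-promoting complex, was the 1 of 42 cell cycle genes under the threshold, where 1.55% of all tested genes were lower. It was at 9.30 and 10.4 FPKM against 2.21 and 1.81 FPKM, with wild type at 2.13 to 6.92 FPKM.

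Transcripts that resemble the morpholino targets most closely were centred near 0 in their RNA levels, which a bound morpholino need not change. Ungapped alignment of both morpholinos to the GENCODE M21 transcripts of 11362 tested genes found 33 genes, the targets left out, in which 18 or more of 23 bases could pair. Their median log2 difference was -0.0021, with 16 above 0 and 17 below. Beside 3.67% of all tested genes, 1 had an unadjusted p under 0.05. That 1 was Ext2, a heparan sulfate polymerase, at 0.110 and 0.0634 FPKM in the controls and at 13.8 and 1.83 FPKM in the Kdm5a+b libraries. The best partial match, 20 of 23 bases, was in Dhrs3, a retinal reductase, at 2.15 and 3.98 FPKM against 1.30 and 0.641 FPKM (log2 difference -1.03, SE 0.57). The best alignments in Gyg reached 14 bases for either morpholino, and those in Glrx5 reached 14 and 16. For the mismatch controls they reached 15 and 15 in Gyg and 14 and 13 in Glrx5. At 16 or more bases, the Kdm5b morpholino matched 12.8% of the higher, 9.14% of the lower and 9.98% of all genes. Its control matched 1.65%, 4.57% and 4.93%. The Kdm5a morpholino matched 5.79%, 6.29% and 6.41%, and its control 4.13%, 5.71% and 6.62%. A match count describes letters anywhere in a transcript and does not show that an oligonucleotide bound. Whether the morpholinos acted on transcripts other than their targets was not tested.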

How the data were processed

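The 9 RNA-seq libraries with gene tables (2 Kdm5a+b morpholino, 2 mismatch control, 3 wild type, 2 alpha-amanitin) were grouped by their labels. TruSeq libraries were made from total RNA of whole-cell lysates, per the labels' protocols. The authors deposited FPKM per gene with lower and upper bounds and a status, per the file headers. The submitters' processing notes name Trimmomatic, BWA, Picard, SAMtools, Cufflinks and build mm10 for the series, without roles. Which settings were used for multiply mapped reads is not given in the sources used here. No read counts are given, so depth is unknown, and the number of libraries and the deposited bounds limit the precision. Gapdh stood at 0.484 to 1.74 FPKM in the 4 injected libraries, so a value at or near 0 is given only as listed.

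A value with status FAIL was treated as missing (12 genes in the 4 injected libraries), so their fits rest on fewer libraries. Genes at 1 FPKM or more in at least 2 of these 4 libraries were tested on log2(FPKM + 1), which understates differences of low genes, with limma 3.58.1 in R 4.3.3 (group means of all 9 libraries, trended empirical Bayes, 5 residual degrees of freedom, Benjamini-Hochberg adjustment over 11438 genes). The limma fit of Kdm5a+b against control was tested on data simulated with the spread of each gene. At an adjusted p under 0.05 it called 22 of 50 genes with a true log2 difference of 2 and 22 of 50 at -2. It called 38 of 50 at 3 and 38 of 50 at -3, and 3 of 11224 unchanged genes. Real differences of such sizes can therefore be missed. Simulated differences were placed only in genes with a control mean log2(FPKM + 1) above 3, so these shares do not cover lower genes. Noise was drawn separately for each gene and library, without a deviation that genes of 1 library share. Alternatives changed the pseudocount, filter, scaling, weights, samples and replicate block. Oligonucleotides were compared with mm10 and with GENCODE M21 transcripts, which held 99.3% of the tested gene identifiers.

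Named genes were the KDM5 family, the 12 largest differences each way (mean of 10 FPKM or more, unadjusted p under 0.05, groups apart, no clone, Rik or pseudogene symbols), the 3 smallest p each way, and up to 4 members with the smallest p in each of 35 gene lists, not all of them printed; 1 of the 12 lower genes is not reported here. Zscan4d, Zfp352, Nlrp5, Bmp15, Setd1b, Rbbp5, Omt2b, Ext2, Dhrs3 and the markers at 0 lie outside this rule and were chosen after their values were seen. The members and lists were chosen with earlier results of these data known.

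The lists not described in the report gave, at an unadjusted p under 0.05, 1 higher of 72 ribosomal protein genes, 1 higher of 44 translation initiation factors, 1 higher and 1 lower of 43 polymerase II factors, 1 lower of 43 DNA replication genes, 1 higher of 27 polycomb genes, and 0 of 36 maternal mRNA decay factors, 50 splicing factors, 31 chaperones, 19 H3K9 silencing genes, 6 sex-linked and 13 housekeeping genes. Over all tested genes, 2.12% were higher and 1.55% lower. In lists of this size such counts cannot be told apart from those shares.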

Additional observations from a re-analysis of the deposited data

How the results depend on the processing

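Over 18 of the 19 alternatives the count of genes at an adjusted limma p under 0.05 stayed at 0; with no filter on low values it was 31, Glrx5 and Gm7846 among them. With no filter, 518 genes were higher and 430 lower at an unadjusted p under 0.05; with a filter at 5 FPKM, 120 and 68. Genes at least 2-fold apart without overlap numbered 187 higher and 144 lower with the filter at 5 FPKM, and 912 and 1068 after rescaling to equal library totals (TPM). The median of the genes higher with alpha-amanitin, 0.17 in the report, was 0.10 with quantile normalization and 0.076 with TPM, where all tested genes were at -0.01 and -0.07. Leaving out 1 library at a time gave 119 to 424 higher and 86 to 282 lower genes at an unadjusted p under 0.05. It gave 539 to 1391 higher and 506 to 1036 lower genes at 2-fold, and 0.17 to 0.25 for the median of the genes higher with alpha-amanitin. Of the counts by p, the highest came without control replicate 1, the lowest higher count without control replicate 2 and the lowest lower count without Kdm5a+b replicate 2. Kdm5a, Kdm5b, the 12 largest differences each way and the 3 smallest p each way kept their direction in all alternatives run. That was largely fixed in advance. The groups did not overlap for any of these genes, so leaving out 1 library could not reverse them. All but Kdm5a and Kdm5b were picked by this same difference. The cause of these moves was not tested, except that a fit with fewer genes or libraries counts over a smaller set. Replicate numbers are shared by the groups but do not pair them: same-numbered libraries deviated together at r = 0.05 across genes. A fit with the replicate block gave 242 higher and 174 lower genes at an unadjusted p under 0.05, and 0 at an adjusted p under 0.05. Depth is unknown, so no smallest detectable difference can be given beyond the share of simulated differences that the fit called.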
